A study of Rattus norvegicus with 8 samples.

Results

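Catalase, the 3 superoxide dismutases, 3 glutathione peroxidases and 3 peroxiredoxins (Cat, Sod1, Sod2, Sod3, Gpx1, Gpx3, Gpx4, Prdx1, Prdx3 and Prdx5) were followed in rat kidney after allopurinol. The 10 genes were taken as a list of symbols and found on the array through the transcript accession of each probe, and all 10 were among the 21416 genes or unnamed transcripts tested. They were represented by 11 probes, 2 of them for Gpx4, and every one was well above background on all 8 arrays. RNA came from kidney of male SD rats, 10 weeks old, on single-colour Agilent arrays, 1 array per sample. Control animals (4 samples) received the vehicle, 0.5% methylcellulose, for 4 weeks, and treated animals (4 samples) received 150 mg/kg of a compound labelled APL for 4 weeks. APL is read as allopurinol, a drug that blocks xanthine oxidase, because the title gives allopurinol as what produced the fibrosis model. The title speaks of renal tubules and the tissue label of kidney, so how much of each sample was tubule is unknown here. Extraction was of RNA, but the labelling protocol names a kit made for DNA, so how the target was labelled is unsettled. Separate animals within a group are nowhere stated, so the p-values measure the spread between these samples, which may be technical.

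These enzymes remove reactive oxygen species in successive steps. Superoxide dismutases turn superoxide into hydrogen peroxide, Sod1 with copper and zinc in the cytosol, Sod2 with manganese in mitochondria and Sod3 outside the cell. Catalase, in peroxisomes, splits hydrogen peroxide into water and oxygen. Glutathione peroxidases of this group are selenoproteins that reduce peroxides at the cost of glutathione, whereas peroxiredoxins use a reactive cysteine that thioredoxin recharges. The proximal tubule, rich in mitochondria and peroxisomes, is a site of strong expression of several of them, and it secretes Gpx3 into plasma.

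Because 8 of the 10 genes were lower together, the DNA before their start sites is shown for 3 that differ in place and in size of change: catalase, Sod1 and Prdx1. Sequences are from RefSeq on the rat build GRCr8, which had entries for 9 of the 10 genes and none for Sod3. The array header names an older build and its coordinates were not used. Each line gives the 250 bases before the start site, 5′ to 3′ on the gene's strand. Capitals mark matches to 5 motifs searched on both strands: the core of the antioxidant response element (TGACNNNGC), the GC box (GGGCGG), the CCAAT box (CCAAT), the TATA box (TATAAA) and the PPAR element, a direct repeat of a hormone receptor site.
Cat, chr3:110329527-110329776, minus strand: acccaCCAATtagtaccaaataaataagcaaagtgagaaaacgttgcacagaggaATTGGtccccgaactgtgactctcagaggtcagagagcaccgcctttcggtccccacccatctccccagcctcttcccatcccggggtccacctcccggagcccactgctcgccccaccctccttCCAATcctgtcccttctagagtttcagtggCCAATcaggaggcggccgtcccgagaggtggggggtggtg
Sod1, chr11:42942573-42942822, plus strand: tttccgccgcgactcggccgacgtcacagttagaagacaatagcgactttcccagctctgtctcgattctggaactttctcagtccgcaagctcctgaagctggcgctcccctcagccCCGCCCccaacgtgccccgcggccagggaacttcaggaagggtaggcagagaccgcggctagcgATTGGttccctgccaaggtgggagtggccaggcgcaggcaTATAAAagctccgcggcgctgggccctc
Prdx1, chr5:135383656-135383905, plus strand: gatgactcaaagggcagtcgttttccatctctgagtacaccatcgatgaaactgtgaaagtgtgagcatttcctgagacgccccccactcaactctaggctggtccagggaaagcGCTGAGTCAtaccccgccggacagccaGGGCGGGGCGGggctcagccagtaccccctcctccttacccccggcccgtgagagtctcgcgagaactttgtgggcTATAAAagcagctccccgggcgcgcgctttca

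The stretch before Cat held 4 CCAAT boxes, the nearest beginning 40 bases before the start, and no match to the other 4 motifs. Sod1 held a TATA box, a CCAAT box and a GC box, and Prdx1 held 1 antioxidant response core at 135 bases, 2 GC boxes that overlap by 1 base, and a TATA box. Over the 9 genes with an entry, 8 held a GC box, 3 a CCAAT box, 2 a TATA box and 2 the antioxidant response core (Sod2 and Prdx1). None held the PPAR element. The same motifs stood in 30.5%, 34.0%, 12.9%, 10.1% and 0.0508% of the 33469 start-site windows of the table. These shares count single windows, whereas a gene was counted if any of its start sites held the motif, and Gpx4 had 3. The bases G and C made up 55.2% to 71.6% of the windows of the 9 genes, against a median of 51.2% over all windows. The part of this in the counts was not tested. A match describes letters only.

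Array brightness differed between the groups: the 75th percentile of processed signal averaged 291.2 ± 18.06 in control and 455 ± 53.04 with allopurinol (SD over 4 arrays), with no overlap. Levels below are log2 of the signal over that percentile of the same array, so a level of 0 is that percentile, and every change is relative to it. Levels of different genes come from different probes and are not set against each other. Arrays were on 2 slides, scanned apart, each with 2 control and 2 allopurinol arrays. Without scaling between arrays the median log2 fold change of all genes was 0.60 instead of -0.03, and each of the 10 genes moved up by 0.64. With normexp background correction and the 75th percentile that median was 0.36. The number of arrays limits the precision.

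Of the members, 8 were lower with allopurinol and none was higher. At an adjusted p under 0.05 (limma, Benjamini-Hochberg over all 21416), 8 of 10 were called lower, against 11.5% of all genes tested, and 0 were called higher, against 11.9%. At an unadjusted p under 0.05 the counts were also 8 and 0. The same 8 had groups that did not overlap, against 15.9% of all genes lower without overlap and 13.9% higher. The median log2 fold change of the 10 was -1.20, against -0.03 for all genes. Without scaling between arrays 3 were called lower, Cat, Sod1 and Prdx3, and the log2 fold changes of Gpx1 and Sod3 were 0.18 and 0.66.

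**Figure D1:**
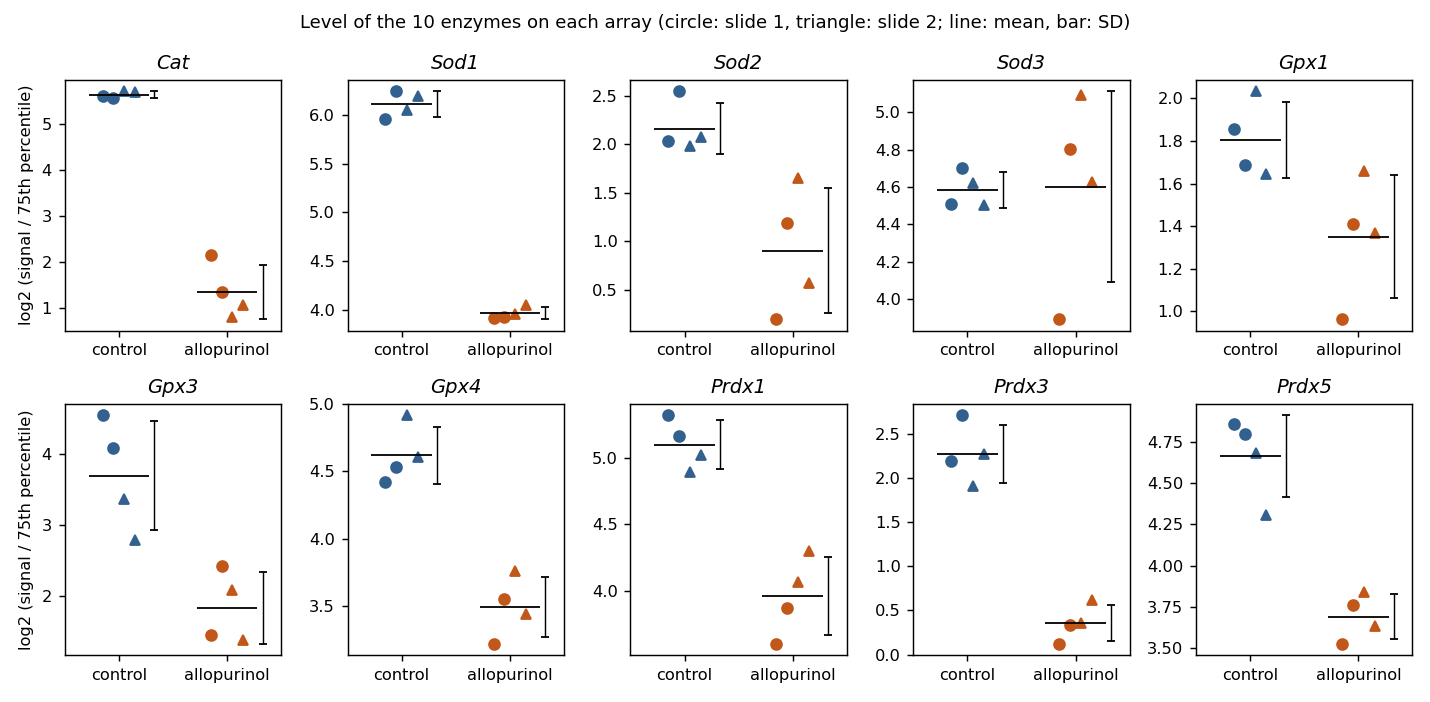
Level of each of the 10 enzymes on the 8 arrays, as log2 of the processed signal over the array's 75th percentile, with a separate vertical scale for each gene. Blue marks are control and orange marks allopurinol arrays, circles are slide 1 and triangles slide 2, lines are group means and bars SDs (n = 4 each); Cat falls from 5.55 to 5.70 down to 0.81 to 2.16, while Sod3 and Gpx1 overlap.

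Catalase, the peroxisomal enzyme, had the largest change. Its log2 level was 5.59, 5.55, 5.70 and 5.68 on the control arrays and 2.16, 1.35, 0.81 and 1.06 on the allopurinol arrays. All treated samples lay far below all controls, and they varied more among themselves (SD 0.59) than the controls did (SD 0.07). Cat fell by 4.29 ± 0.30 on the log2 scale (moderated SE, n = 4 each, adjusted p = 6.88e-05), to 5.13% of the control level, a 19.5-fold drop. Counted from the lowest log2 fold change, Cat stood at rank 245 of 21416. The change was -3.81 on slide 1 and -4.76 on slide 2, and -3.65 without scaling.

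In bulk tissue, fewer cells of a type and less RNA per cell cannot be told apart. Over all genes tested, 11.5% were called lower and 11.9% higher, and no marker list was tested against these shares. Proximal tubule markers moved with these enzymes: 8 of 10 were called lower and 1 higher, and their summed level ran from 8.93 to 9.11 in control and from 5.52 to 5.96 with allopurinol. All 10 were well above background on every array, with Lrp2, the endocytic receptor of that segment, at -2.15 ± 0.23 (adjusted p = 0.000522) and Slc22a6, an organic anion carrier, at -6.51 ± 0.37 (adjusted p = 3.14e-05). The 1 called higher was Slc5a2, the glucose carrier of the early proximal tubule, at 3.04 ± 0.66 (adjusted p = 0.0140), and Cubn, a partner receptor of Lrp2, was not called, at -0.53 ± 0.22 (adjusted p = 0.115). Red cell markers were lower for 2 of 4 tested members, with a summed level of 3.56 to 4.51 in control and -0.64 to 2.31 with allopurinol. Both were globins, Hba-a1 and Hbb. Fibroblast markers were higher for 2 of 5 (3.54 to 3.84 in control, 4.83 to 6.47 with allopurinol), macrophage markers for 2 of 4 (1.47 to 1.96 and 2.74 to 3.42) and collecting duct markers for 1 of 5 (1.39 to 3.31 and 2.18 to 4.42). The fibroblast markers called were Col1a1 and Col3a1, while Dcn (-0.22), Pdgfrb (0.22) and Acta2 (1.17) were not called. The macrophage markers called were Cd68 and Lyz2, while Adgre1 (-0.34) and Csf1r (-0.24) were not called. Of the neutrophil markers, S100a8 was well above background on 0 control and 4 allopurinol arrays and S100a9 on 1 and 4, so both were tested only through the allopurinol arrays and had to be higher there. Endothelial markers were lower for 3 of 4 (1.79 to 2.73 and -1.57 to -0.70), thick limb markers for 2 of 3 (5.30 to 5.82 and 0.71 to 4.23) and podocyte markers for 1 of 4 (0.87 to 1.61 and -0.77 to -0.04). Among the 3 endothelial genes, Emcn was tested only through its 4 control arrays, since just 1 allopurinol array was bright enough. That favoured a lower call, so its place in the endothelial count is a description. Its groups overlapped, allopurinol replicates 3 and 4 lay at the floor of -7.64, and its call was lost in 6 of the 22 alternatives. The thick limb count was 0 without any 1 control array or allopurinol replicate 1 or 3 (limma), and the collecting duct count 0 without control replicate 3 or 4, and likewise without allopurinol replicate 1 or 3. No distal tubule marker of 2 and no T cell marker of 1 was called by limma, nor at an unadjusted p under 0.05. The macrophage markers Cd163 and Mrc1, the neutrophil marker Elane, and Cd3e and Cd2 of T cells were not well above background on 4 arrays. The part of these markers in the changes of the 10 enzymes was not tested.

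Sod1, the cytosolic dismutase, had log2 levels of 5.96, 6.25, 6.05 and 6.20 in control and 3.92, 3.92, 3.96 and 4.05 with allopurinol. The treated samples were nearly equal (SD 0.06) and far below every control. Sod1 fell by 2.15 ± 0.17 (adjusted p = 0.000122), a 4.44-fold drop, with -2.18 on slide 1 and -2.12 on slide 2. The value without scaling was -1.51.

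Sod2, the mitochondrial dismutase, had log2 levels of 2.04, 2.55, 1.98 and 2.07 in control and 0.20, 1.19, 1.65 and 0.57 with allopurinol. The groups did not overlap, but the treated samples were spread (SD 0.65) and the gap between the groups was 0.33. Sod2 fell by 1.26 ± 0.34 (adjusted p = 0.0324), a 2.39-fold drop, with -1.60 on slide 1 and -0.92 on slide 2. The call ended when any 1 array other than allopurinol replicate 3 was left out, that is control replicate 1, 2, 3 or 4 or allopurinol replicate 1, 2 or 4, with limma adjusted p from 0.0536 to 0.0860. It also ended without scaling (-0.62, adjusted p = 0.199) and under normexp with percentile scaling (-1.25, adjusted p = 0.0611).

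Sod3, the secreted dismutase, had log2 levels of 4.51, 4.70, 4.62 and 4.504 in control and 3.89, 4.80, 5.09 and 4.62 with allopurinol. The control values lay inside the range of the treated ones, whose SD was 0.51 against 0.09. The log2 fold change was 0.02 ± 0.27 (adjusted p = 0.967), with a 95% interval from -0.61 to 0.65. It was -0.26 on slide 1 and 0.29 on slide 2, and turned its sign under several settings, from -0.16 under normexp with percentile scaling to 0.66 without scaling.

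Gpx1, the cytosolic and mitochondrial glutathione peroxidase, was measured by a probe with 10 spots per array. Its log2 level was 1.85, 1.69, 2.03 and 1.65 in control and 0.96, 1.41, 1.66 and 1.37 with allopurinol. Treated values were mostly lower, but allopurinol replicate 3 lay within the control range. The log2 fold change was -0.45 ± 0.22 (adjusted p = 0.165), with a 95% interval from -0.95 to 0.04, and -0.58 and -0.33 on slides 1 and 2. Gpx1 did not pass the threshold, and its value was 0.18 without scaling (adjusted p = 0.566).

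Gpx3, the plasma glutathione peroxidase that the kidney secretes, had the widest spread among controls. Its log2 level was 4.54, 4.07, 3.37 and 2.80 in control and 1.46, 2.43, 2.09 and 1.39 with allopurinol. Both controls of slide 1 were higher than both controls of slide 2, and all treated values lay below all controls. Gpx3 fell by 1.85 ± 0.43 (adjusted p = 0.0180), a 3.61-fold drop, with -2.36 on slide 1 and -1.34 on slide 2. The call ended without allopurinol replicate 4 (-1.70, adjusted p = 0.0530) and without scaling (-1.21, adjusted p = 0.0538).

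Gpx4, which reduces lipid peroxides inside membranes and guards against ferroptosis, had log2 levels of 4.42, 4.53, 4.92 and 4.61 in control and 3.22, 3.56, 3.76 and 3.44 with allopurinol. Every treated value was lower than every control. Gpx4 fell by 1.13 ± 0.21 (adjusted p = 0.00679), a 2.18-fold drop, with -1.09 and -1.16 on slides 1 and 2. The other probe for Gpx4 changed by -1.22 ± 0.25 in a fit over probes, from a mean of 1.87 to 0.65 (adjusted p = 0.0105). Without scaling the value of the first probe was -0.49 (adjusted p = 0.121).

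Prdx1, the main cytosolic peroxiredoxin, had log2 levels of 5.32, 5.16, 4.90 and 5.02 in control and 3.61, 3.87, 4.07 and 4.30 with allopurinol. The groups were apart by 0.60. Prdx1 fell by 1.14 ± 0.22 (adjusted p = 0.00810), a 2.20-fold drop, with -1.504 on slide 1 and -0.78 on slide 2. Without scaling it stood at -0.50 (adjusted p = 0.169).

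Prdx3, the peroxiredoxin of the mitochondrial matrix, had log2 levels of 2.19, 2.71, 1.92 and 2.27 in control and 0.13, 0.34, 0.36 and 0.62 with allopurinol. The lowest control was 1.29 above the highest treated sample. Prdx3 fell by 1.91 ± 0.23 (adjusted p = 0.000898), a 3.77-fold drop, with -2.22 and -1.60 on slides 1 and 2. It was called lower in every setting tried, with a value of -1.27 without scaling.

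Prdx5, which is found in mitochondria, peroxisomes and cytosol, had log2 levels of 4.86, 4.80, 4.68 and 4.31 in control and 3.53, 3.76, 3.84 and 3.64 with allopurinol. Control replicate 4 was the lowest control and still lay above all treated samples. Prdx5 fell by 0.97 ± 0.20 (adjusted p = 0.0113), a 1.96-fold drop, with -1.19 on slide 1 and -0.76 on slide 2. Without scaling it was -0.33 (adjusted p = 0.255).

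The order of the changes, from the largest fall, was Cat, Sod1, Prdx3, Gpx3, Sod2, Prdx1, Gpx4, Prdx5, Gpx1 and Sod3. With the slide as a block the calls of all 10 were as in the fit without it, and the largest adjusted p among the 8 called genes was 0.0478, for Sod2. Allopurinol replicate 1 had the lowest treated value for 8 of the 10 genes, all except Cat, where it was the highest, and Gpx3. Allopurinol replicate 3 had the highest treated value for 5, namely Sod2, Sod3, Gpx1, Gpx4 and Prdx5. Without allopurinol replicate 1 the value of Cat was -4.56, that of Sod2 -1.02 and that of Sod3 0.26.

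**Figure D2:**
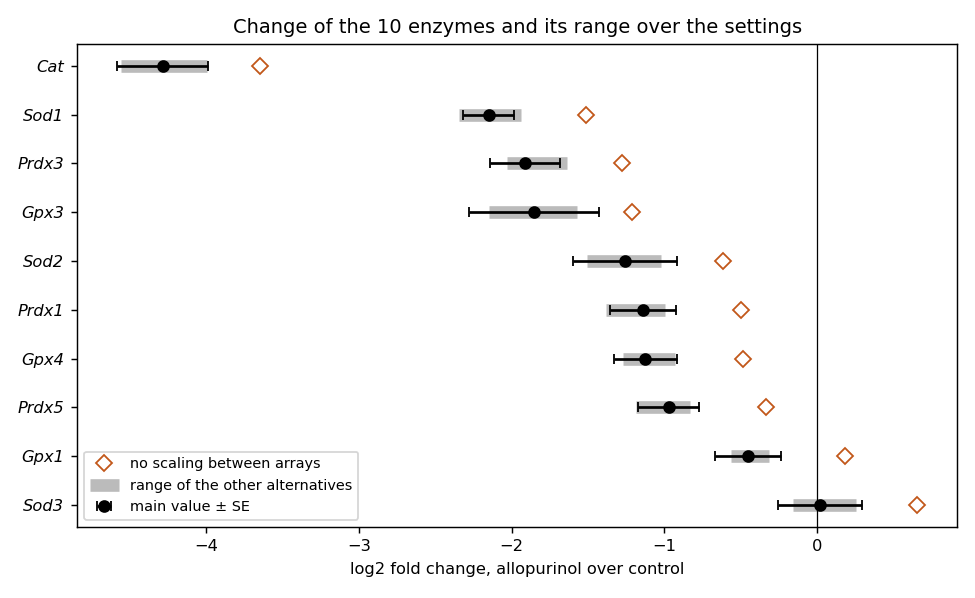
Log2 fold change of each enzyme, allopurinol over control, with its moderated SE (black), the value without scaling between arrays (open diamonds) and the range over the other settings (grey bars). Cat, Sod1 and Prdx3 stay well below 0 everywhere, and the diamonds of Gpx1 and Sod3 lie above 0, at 0.18 and 0.66.

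Whether members of 1 family changed unequally was read from the difference of their log2 values on the same array, from which the scale of the array drops out. Of 10 pairs compared, 7 shifted at an adjusted p of 0.0408, each with the smallest p the 70 splits of the arrays allow (exact two-sided permutation test, p = 0.0286 before Benjamini-Hochberg adjustment over the 10 pairs). Among dismutases, Sod1 dropped relative to Sod3 by 2.17 ± 0.26 and Sod2 relative to Sod3 by 1.28 ± 0.16, as differences of log2 levels with the SE of the group means. The shift of Sod1 against Sod2 was -0.89 ± 0.34 (exact permutation p = 0.0571, adjusted p = 0.0714), short of the threshold, and passed it under normexp with percentile scaling (-1.09) or without allopurinol replicate 1 (-1.12), both at an adjusted p = 0.0408.

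Gpx1 rose relative to Gpx4 by 0.67 ± 0.10 and relative to Gpx3 by 1.398 ± 0.43. The latter call ended without control replicate 1 (1.13) and without allopurinol replicate 1 (1.3996), 2 (1.57), 3 (1.38) or 4 (1.24), with exact permutation adjusted p from 0.0714 to 0.0952. Gpx3 against Gpx4 shifted by -0.73 ± 0.49 (exact permutation p = 0.229, adjusted p = 0.254). Among peroxiredoxins, Prdx3 dropped more than both others: Prdx1 rose relative to Prdx3 by 0.77 ± 0.16, and Prdx3 changed by -0.94 ± 0.22 relative to Prdx5. Prdx1 against Prdx3 lost its call under normexp with percentile scaling (0.45, exact permutation adjusted p = 0.179). Prdx1 against Prdx5 shifted by -0.17 ± 0.17 (exact permutation p = 0.343, adjusted p = 0.343). Cat dropped relative to Gpx1, the other peroxide-removing enzyme of the set compared with it, by -3.83 ± 0.44.

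**Figure D3:**
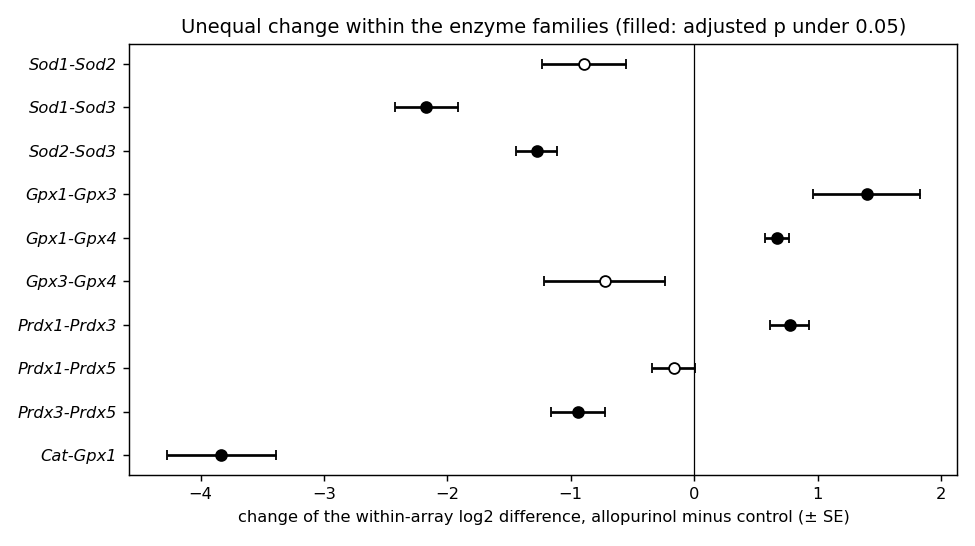
Change of the within-array log2 difference of 2 enzymes, allopurinol minus control, with its SE. Filled points are the 7 pairs with an adjusted p under 0.05 in the exact permutation test; the 3 open points are Sod1-Sod2, Gpx3-Gpx4 and Prdx1-Prdx5.

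The genes closest in pattern were sought among 12663 other named genes, as the root mean square difference of log2 levels over the 8 arrays after centring each gene on its mean. Sod1 was nearest to Slc37a4, the glucose-6-phosphate transporter (0.13). Gpx4 was nearest to Ppa2, the mitochondrial pyrophosphatase (0.09), and Acads, a short-chain acyl-CoA dehydrogenase (0.10). Prdx1 was nearest to Uqcr11, a subunit of respiratory complex III (0.11), with Ppp1r2 (0.11) and thioredoxin, Txn1 (0.13), after it. Prdx3 was near Ilrun (0.18), Tinag (0.19) and Pdhb, a subunit of pyruvate dehydrogenase (0.19). Sod2 was nearest to Il12rb2 (0.12), Nr1h3 (0.14) and Lamtor5 (0.22), and Sod3 to Api5 (0.10), Nnat (0.14) and Gabarap (0.16). Gpx1 was nearest to Vps18, Mrps21 (both 0.11) and Phb1 (0.12), and Prdx5 to Hivep3 (0.13), Spag7 and Smpd3 (both 0.14). The nearest genes of Cat, Slc7a12l1 (0.35), Ak4 and Tmlhe (both 0.36), and of Gpx3, Cxcl11 (0.35), Slc25a10 (0.37) and Glyatl2 (0.38), were farther away than those of the other 8.

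The family members outside the 10 did not all go the same way. Of 8 further peroxidases listed, 6 were tested, 3 were called higher and 1 lower, with a median log2 fold change of 2.04. Over all genes tested, 11.9% were called higher and 11.5% lower. The count of these peroxidases called higher was 1 without allopurinol replicate 2 or 4. That 1 was Gpx7, which was tested only through the allopurinol arrays, as described below. Prdx6, a peroxiredoxin with a single active cysteine that also acts on phospholipids, had log2 levels of 5.12, 5.27, 5.20 and 4.94 in control and 3.43, 3.49, 3.31 and 3.64 with allopurinol. It fell by 1.67 ± 0.18 (adjusted p = 0.000527), without overlap of the groups, much as the 8 members did. Gpx8, a glutathione peroxidase relative of the endoplasmic reticulum, was called higher. It had log2 levels of -2.25, -3.03, 0.57 and -1.32 in control and 1.77, 1.09, 1.23 and 1.24 with allopurinol, a rise of 2.84 ± 0.70 (adjusted p = 0.0234). Its call ended without control replicate 1 or without any 1 allopurinol array (2.59 to 2.92, limma adjusted p from 0.0509 to 0.0579). Gpx7, its close relative in that compartment, was -5.99, -6.48, -7.64 and -7.64 in control, where 1 array was well above background, and -2.08, -3.58, -2.83 and -1.67 with allopurinol. It was tested only through the allopurinol arrays and so had to be higher there, and 2 control values lay at the floor set for dim signals. Its place among the 3 called higher, and its part in the median of that list, are therefore a description, and its log2 fold change ran from 0.77 to 4.85 over the settings.

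Prdx2, the cytosolic peroxiredoxin abundant in red cells, had log2 levels of 3.47, 3.47, 3.39 and 3.15 in control and 4.03, 4.23, 3.89 and 4.21 with allopurinol. It rose by 0.72 ± 0.18 (adjusted p = 0.0268), opposite to Prdx1 (-1.14), while both globins were lower. Its call ended under normexp with percentile scaling (0.47, adjusted p = 0.413) and without control replicate 2, 3 or 4, and likewise without allopurinol replicate 2 or 4 (0.65 to 0.75, limma adjusted p from 0.0509 to 0.0692). Prdx4, the peroxiredoxin of the endoplasmic reticulum, stood at 1.67 ± 0.53 (adjusted p = 0.0535) and Gpx2, the epithelial glutathione peroxidase, at 2.41 ± 0.75 (adjusted p = 0.0510), both just short of the threshold with groups that did not overlap.

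**Figure D4:**
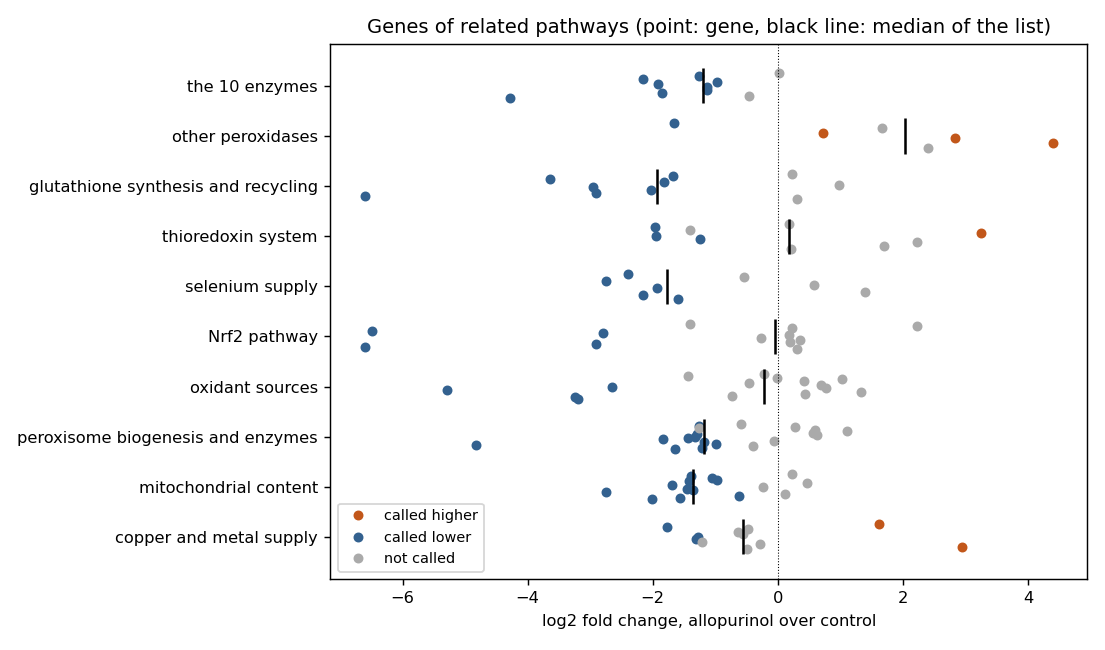
Log2 fold change of the 10 enzymes and of the tested genes of 9 related lists, allopurinol over control. Blue points were called lower, orange higher and grey not called, and black lines are list medians; the median of the 10 enzymes is -1.20 and that of the other peroxidases 2.04.

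The supply of reducing power to these enzymes was lower at the glutathione end. Of 10 tested genes of glutathione synthesis and recycling, 7 were called lower and 0 higher (limma; also 7 and 0 at an unadjusted p under 0.05), with a median of -1.93. Gclc, the catalytic subunit of the enzyme that starts glutathione synthesis, was 6.09, 6.13, 6.34 and 6.26 in control and 0.47, -0.51, -0.81 and -0.73 with allopurinol, in log2 levels. Gss, which completes glutathione, fell by 3.65 ± 0.29 (adjusted p = 0.000117). In the thioredoxin system, which serves peroxiredoxins, 3 of 9 tested genes were lower and 1 higher, with a median of 0.17. Of the 3 lower, Txnrd2 (-1.96 ± 0.55, adjusted p = 0.0377) lost its call in 12 of the 22 alternatives. Of all genes tested, 11.5% were called lower and 11.9% higher, so the 1 higher was near that share. Txn1 (-1.24 ± 0.19, adjusted p = 0.00280, and -0.61 with adjusted p = 0.0727 without scaling) and its mitochondrial relative Txn2 (-1.95 ± 0.30, adjusted p = 0.00296) were lower, and Txnip, an inhibitor of thioredoxin, rose by 3.25 ± 0.22 (adjusted p = 5.96e-05).

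Selenium is needed to make Gpx1, Gpx3 and Gpx4. Of 8 tested genes of selenium supply and selenocysteine insertion, 5 were lower and 0 higher (limma; 6 and 1 at an unadjusted p under 0.05), with a median of -1.77. Selenop, the selenium carrier, had log2 levels of 3.76, 3.83, 4.02 and 3.41 in control and 1.22, 0.93, 0.73 and 1.14 with allopurinol. It fell by 2.75 ± 0.21 (adjusted p = 0.000114), and Scly, which frees selenium from selenocysteine, fell by 1.93 ± 0.20 (adjusted p = 0.000440). Lrp2, which takes up Selenop in the proximal tubule, was lower too, as given above. Of the copper and metal genes, 3 of 11 were lower and 2 higher, against 11.5% and 11.9% of all genes tested. The lower ones were the ferritin chains Fth1 (-1.31) and Ftl1 (-1.28), and Slc31a1. The higher ones were Atp7a, at 2.94 ± 0.70 (adjusted p = 0.0201), and Slc39a14, at 1.62 ± 0.43 (adjusted p = 0.0305). The count called higher was 1 without control replicate 2, 3 or 4, and likewise without allopurinol replicate 1, 2 or 3, and 0 without allopurinol replicate 4 (limma). Slc31a1, the copper importer, changed by -1.77 ± 0.20 (adjusted p = 0.000601, and -1.03 with adjusted p = 0.0969 under normexp with percentile scaling), and Ccs, the copper chaperone of Sod1, stood at -1.21 ± 0.57 (adjusted p = 0.165).

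Many, but not all, genes of the compartments that hold Cat, Sod2 and Prdx3 were called lower. The shares over all genes tested were 11.5% lower and 11.9% higher. Of 19 peroxisomal genes 10 were lower and 0 higher (limma, and the same at an unadjusted p under 0.05), with a median of -1.18. The count called lower was 6 without control replicate 1, 2 or 4, and likewise without allopurinol replicate 2 or 4. Ehhadh, an enzyme of peroxisomal fatty acid oxidation, fell by 4.83 ± 0.35 (adjusted p = 7.87e-05) and Abcd3, a transporter of the peroxisomal membrane, fell by 1.64 ± 0.18 (adjusted p = 0.000524). Pex11a, a peroxisome division factor, fell by 1.84 ± 0.30 (adjusted p = 0.00421), while Pex19, an import receptor for membrane proteins, stood at 0.57 ± 0.44 (adjusted p = 0.385). Of 15 mitochondrial genes 11 were lower and 0 higher (limma, and the same at an unadjusted p under 0.05), with a median of -1.35. Cycs, cytochrome c, fell by 2.75 ± 0.18 (adjusted p = 5.58e-05), and Cs, citrate synthase, stood at 0.12 ± 0.29 (adjusted p = 0.799).

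Among 15 tested oxidant sources 4 were lower and 0 higher (limma; 5 and 0 at an unadjusted p under 0.05), with a median of -0.21. Among the lower ones were the peroxisomal oxidases Dao (-5.29 ± 0.36), Hao2 (-2.66 ± 0.28) and Acox2 (-3.24 ± 0.38), with limma adjusted p from 6.44e-05 to 0.000789, all producers of hydrogen peroxide. The call of Acox2 ended under normexp with percentile scaling (-1.05, adjusted p = 0.297). Xdh, the target of allopurinol, stood at -0.21 ± 0.45 (adjusted p = 0.757). In the Nrf2 pathway, which controls many antioxidant genes, 4 of 12 were lower and 0 higher (limma; 5 and 1 at an unadjusted p under 0.05), with a median of -0.04. Among the 4 lower were Gclc and Gclm, already counted with glutathione. Nfe2l2, the factor itself, stood at 0.18 ± 0.24 (adjusted p = 0.612), and was called higher without scaling, at 0.82 (adjusted p = 0.0282). Its target Hmox1 stood at 0.20 ± 0.31 (adjusted p = 0.674). Srxn1, also a target, stood at 2.22 ± 0.92 (limma adjusted p = 0.122), and was called higher without scaling, at 2.86 (limma adjusted p = 0.0436). Osgin1, another target, fell by 6.48 ± 1.02 (adjusted p = 0.00326) and was called lower in each of the 22 alternatives. The quinone reductase Nqo1, also a target, was at -2.80 ± 0.77 (adjusted p = 0.0333), with groups that overlapped and a call lost in 10 of the 22 alternatives. Over the 99 tested genes of the 9 related lists, 46 were lower and 6 higher, against 11.5% and 11.9% of all genes tested. Their median was -0.74. Gpx7, tested only through the allopurinol arrays, was among the 6. It was called higher in every alternative except normexp with percentile scaling. Its place in each count of related genes called higher is a description. Without scaling the counts of the 99 were 30 lower and 18 higher: the peroxisomal genes called lower were 4, the mitochondrial ones 6 and the thioredoxin ones 1, and the genes called higher were 5 of the other peroxidases, 3 each of the thioredoxin system, the Nrf2 pathway and the oxidant sources, 2 of selenium supply, and 1 each of glutathione and peroxisome. Under normexp with percentile scaling 5 peroxisomal genes were called lower, 1 other peroxidase was higher and 0 copper and metal genes were higher (limma). Among the 99, 3 and 2 genes were called higher without allopurinol replicate 2 and 4, respectively.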

How the data were processed

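RNA of 8 rat kidney samples was measured on single-colour arrays, whose images were quantified by Agilent Feature Extraction 10.5.1.1, per the file headers. The deposited scanner files hold linear intensity values, of which the processed signal already had background and spatial trend removed, per the file headers, and 0 or 1 flags. The authors' own values, in a further deposited table, are in log2 units. Compared with the scanner signals, they were log2 of the processed signal over the array's 75th percentile, centred on each probe's median: correlations were 0.9997 to 0.99997 per array and 92.2% to 95.8% of values lay within 0.01. By replicate number, the medians of its control columns were 0.0338, 0.0662, 0.0771 and 0.00597, those of its allopurinol columns -0.0724, 0.0186, -0.136 and -0.0445. Scale, centring and direction were thus recovered.

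Flagged outlier spots were left out and the 42877 spots averaged to 30367 probes. Signals were divided by the 75th percentile, floored at 0.005 of it and logged. Probes well above background on at least 4 of 8 arrays were kept (24339), and the brightest probe represented a gene. Symbols came from a RefSeq table of GRCr8 by accession (18643 probes named, 11724 not). No spot was saturated. The 2 groups entered lmFit and eBayes of limma 3.58.1 (R 4.3.3), with p-values adjusted over 21416 genes or unnamed transcripts. The fit was tested on simulated data. Pairs of members were compared with an exact permutation test. Named genes are all members, genes of the related lists and, for each member, the 3 genes nearest in pattern; not all of these are printed, and some are not reported here. The members and lists were chosen with earlier results of these data known.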

Additional observations from a re-analysis of the deposited data

Results flagged for a closer look

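In 101 genes with values in the text or close in pattern to a member, each group of 4 was searched for 1 array far from the other 3 (Dixon's criterion). Of 202 groups, 10 met it, and chance gives about 1 in 20. Among the members it was Sod2, at 2.55 on control replicate 2 against 1.98 to 2.07 on the other controls. Without that array the log2 fold change of Sod2 was -1.13. Of the related genes, Txn2 was 1.54 on control replicate 1 (others 0.85 to 0.95), Ehhadh was -3.68 on allopurinol replicate 3 (others -2.89 to -2.78) and Ftl1, a ferritin chain, was 6.50 on allopurinol replicate 1 (others 6.60 to 6.61). Slc22a6 was 0.21 on allopurinol replicate 3 (others -1.16 to -1.07) and Hba-a1 4.05 on control replicate 3 (others 3.31 to 3.38). Api5, the gene nearest to Sod3 in pattern, was 1.65 on allopurinol replicate 1 (others 2.68 to 2.79). Pex2, a peroxisomal import factor, was -0.20 on allopurinol replicate 1 (others -1.28 to -1.25), and Smpd3, near Prdx5 in pattern, was -0.26 on allopurinol replicate 2 (others -0.67 to -0.61). S100a8 was -6.63 on control replicate 4 and at the floor of -7.64 on the other controls, none of them well above background.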

How the results depend on the processing

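Over 22 alternatives the 10 members gave 220 values, of which 198 kept their direction and their side of the threshold, 16 lost the call and 6 turned sign, 5 of the 6 for Sod3 and 1 for Gpx1. Cat, Sod1 and Prdx3 kept their call throughout, at -4.56 to -3.65, -2.35 to -1.51 and -2.03 to -1.27.

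Without scaling between arrays Sod2 was -0.62, Gpx3 -1.21, Gpx4 -0.49, Prdx1 -0.50 and Prdx5 -0.33, all short of the threshold, and Gpx1 was 0.18. The members called lower were then 3, the genes called 5889 higher and 1143 lower, and the related genes 18 higher and 30 lower. With normexp and the 75th percentile Sod2 was -1.25 and not called, Sod3 was -0.16, 1053 genes were called higher and 974 lower, and 2 related genes were higher. There the pair Sod1-Sod2 passed at -1.09 and Prdx1-Prdx3 missed at 0.45. The cause was not tested. The scanner files give no mean spot signal, so normexp used the median signal. 

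With 1 array left out, the values ran from -1.51 to -1.02 for Sod2, -0.14 to 0.26 for Sod3 (-0.01 without control replicate 1 or 4, -0.05 and -0.14 without allopurinol replicate 2 or 3) and -2.15 to -1.57 for Gpx3, and for the pairs from 1.13 to 1.64 for Gpx1-Gpx3 and -1.12 to -0.64 for Sod1-Sod2. The genes called ran from 1605 to 2202 higher and 1778 to 2018 lower, the members called lower from 6 to 8, and the related genes from 2 to 7 higher and 37 to 42 lower. Fewer samples entered these fits.

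Same-numbered samples of the 2 groups did not deviate together (correlations of -0.02 to 0.05 over genes, and 2 of 4 controls matched their own number best). The numbers thus gave no sign of pairing the samples, though a weak shared effect would not show in these correlations. With the replicate block 1641 genes were called higher and 1617 lower, and Sod2 (-1.26, limma adjusted p = 0.0613) and Prdx1 (-1.14, limma adjusted p = 0.0501) were not called. The slide as a block moved no member's call. Keeping population outlier spots, an alternative added after seeing the data, changed no member's call. Of 1342 other values under alternatives, for lists and for the median of all genes, 108 moved by more than the spread between replicates or by over 1.5 times in count.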
